A study of Mus musculus with 6 samples.

Results

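The 8 genes Prox1, Lyve1, Pdpn, Mmrn1, Reln, Nr2f1, Nr2f2 and Aplnr mark lymphatic or venous endothelium, and they were taken by symbol from a table of 54532 genes, in which each matched a single row. Their RNA was counted in 6 poly-A RNA-seq libraries, 3 from female and 3 from male wild-type mice, of primary cultures labelled MAEC (mouse aortic endothelial cells), to ask how endothelial cells differ by sex. All 6 cultures were untreated and grew in F-12 medium with fetal bovine serum, antibiotics, heparin and endothelial cell growth factors. Age and strain are not given in the labels, and neither is the source of each replicate, an animal of its own or a dish of shared cells. The p-values below therefore cover the spread among these 6 libraries, part or all of which may be technical.

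Veins and lymphatic vessels take their identity from a small set of regulators. The orphan nuclear receptor COUP-TFII, encoded by Nr2f2, acts in venous endothelium by holding back Notch signalling, and together with SOX18 it switches on Prox1, the homeobox factor that turns venous cells into lymphatic ones and keeps them so. Lymphatic endothelium then carries the hyaluronan receptor LYVE1, the mucin-like membrane protein podoplanin (Pdpn), the secreted glycoproteins multimerin 1 (Mmrn1) and reelin (Reln), and the VEGF-C receptor encoded by Flt4, while the apelin receptor (Aplnr) is a G protein-coupled receptor of venous and sprouting capillary endothelium. These genes differ in how specific they are: Prox1 and Mmrn1 are absent from most stromal cells and Lyve1 is shared mainly with tissue macrophages, whereas podoplanin is a standard fibroblast marker, COUP-TFI (Nr2f1) and COUP-TFII are broadly made by mesenchymal cells, and reelin is also made by neurons and some stromal cells.

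The promoters of Pdpn and Nr2f2, whose RNA was higher in female libraries, are shown beside that of Prox1, whose RNA was close to 0 in both sexes. Each is the 250 bases before the start of the gene in RefSeq, 5′ to 3′ on the minus strand of GRCm38.p6, with motif matches in capitals. Pdpn is at chr4:143299565-143299814, Nr2f2 at chr7:70366747-70366996 and Prox1 at chr1:190170828-190171077.
Pdpn: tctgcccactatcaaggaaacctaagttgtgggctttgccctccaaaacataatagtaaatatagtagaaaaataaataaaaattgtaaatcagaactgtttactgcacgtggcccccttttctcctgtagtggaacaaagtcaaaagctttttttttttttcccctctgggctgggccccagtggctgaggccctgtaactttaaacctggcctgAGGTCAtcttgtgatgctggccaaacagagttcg
Nr2f2: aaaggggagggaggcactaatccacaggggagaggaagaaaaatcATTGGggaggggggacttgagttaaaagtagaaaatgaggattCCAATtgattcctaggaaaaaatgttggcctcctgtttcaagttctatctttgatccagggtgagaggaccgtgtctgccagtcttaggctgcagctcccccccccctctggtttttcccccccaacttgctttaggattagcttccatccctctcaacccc
Prox1: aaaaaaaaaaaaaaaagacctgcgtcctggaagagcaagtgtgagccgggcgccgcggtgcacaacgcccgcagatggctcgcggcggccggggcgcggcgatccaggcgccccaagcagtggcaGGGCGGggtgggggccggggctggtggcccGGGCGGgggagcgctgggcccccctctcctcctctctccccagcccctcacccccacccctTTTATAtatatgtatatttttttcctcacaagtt

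The motifs searched on both strands were AGGTCA (a nuclear receptor half-site, of the kind COUP-TF proteins bind), the GC box GGGCGG, the CCAAT box (CCAAT itself), the TATA box in the form TATAAA and the AP-1 site TGACTCA, none of which contains another. The Pdpn window held AGGTCA starting 34 bases before the gene's start, and 14.0% of the 32851 RefSeq windows of this length held that motif. The Nr2f2 window held CCAAT at 162 bases and its reverse complement at 205 bases before the start (33.8% of windows held it). The Prox1 window held GGGCGG at 125 and 95 bases (32.7% of windows) and TATAAA, as its reverse complement, at 34 bases (12.4% of windows). TGACTCA, in 4.5% of windows, was in none of the 3. CG dinucleotides numbered 2 in the Pdpn window, 1 in that of Nr2f2 and 20 in that of Prox1, against a median of 6. RefSeq windows were at hand for 6 of the 8 genes. Those of Nr2f1 overlap its annotated exons and are not shown, and that of Nr2f2 overlaps an exon of the noncoding gene B130024G19Rik on the opposite strand.

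Library totals ran from 17410996 to 22993574 counts, so that 0 counts in 1 library leave room for up to 0.128 to 0.171 CPM (counts scaled to a common total with TMM factors), taking 3 counts as the limit. This limit, and the intervals below, cover counting error only. Male replicate 3 stood apart, its log2 CPM correlating at 0.966 with male replicate 1, where the lowest value among female libraries was 0.983. Against the label, markers of endothelium were largely absent. Of 20 pan-endothelial genes, 14 stayed under 1 CPM in every library, and the defining junction gene Cdh5 had 0 counts in all 6, with Tie1, Tal1, Robo4 and Cldn5. Over all genes tested, 9.68% were called higher and 8.62% lower in female libraries. Ptprb had 15, 3 and 6 counts in the female and 105, 115 and 61 in the male libraries. It passed the filter on low counts through the male ones. Not all were absent, and of the 7 tested, Cd34 and Ptprb fell in female and 5 were not called. Among the 5 were Eng, a TGF-beta co-receptor that mesenchymal cells share, at 171 ± 3.90 CPM in female against 199 ± 7.40 CPM in male libraries (SD, n = 3), and Egfl7, a matrix protein gene of endothelium, at 1.47 against 3.58 CPM (log2 fold change -1.29 ± 0.42, edgeR adjusted p = 0.0622). Flt1 (VEGFR1) was another, at 58.0 ± 4.84 CPM in female against 70.3 ± 12.5 CPM in male libraries (SD, n = 3; log2 fold change -0.28 ± 0.15, edgeR adjusted p = 0.244). Most of the summed level of this list, given below, was Eng, Flt1 and Cd34. Of 18 fibroblast markers, 1 stayed under 1 CPM. The summed level of the fibroblast list was 13981 to 14951 CPM in female and 10096 to 11580 CPM in male libraries, and that of the pan-endothelial list 260.4 to 274.2 CPM in female and 341.6 to 352.0 CPM in male libraries. In bulk RNA, fewer cells of a type and less RNA per cell cannot be told apart.

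Among the 8 genes, 3 were higher in female libraries (Pdpn, Nr2f1 and Nr2f2), 1 was lower (Lyve1), 1 was tested and not called (Prox1), and Mmrn1, Reln and Aplnr had too few counts to be tested. A call is an adjusted p under 0.05 in edgeR's quasi-likelihood test. Of all 14932 genes tested, 9.68% were called higher and 8.62% lower in female libraries. The sexes did not overlap for the 4 called genes, and among all genes tested every female library lay above every male one for 19.2% and below for 16.7%. The 3 genes that rose each averaged over 1000 counts per library, and of the 4441 tested genes at that depth 8.92% were called higher, a share computed after the data were seen.

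**Figure D1:**
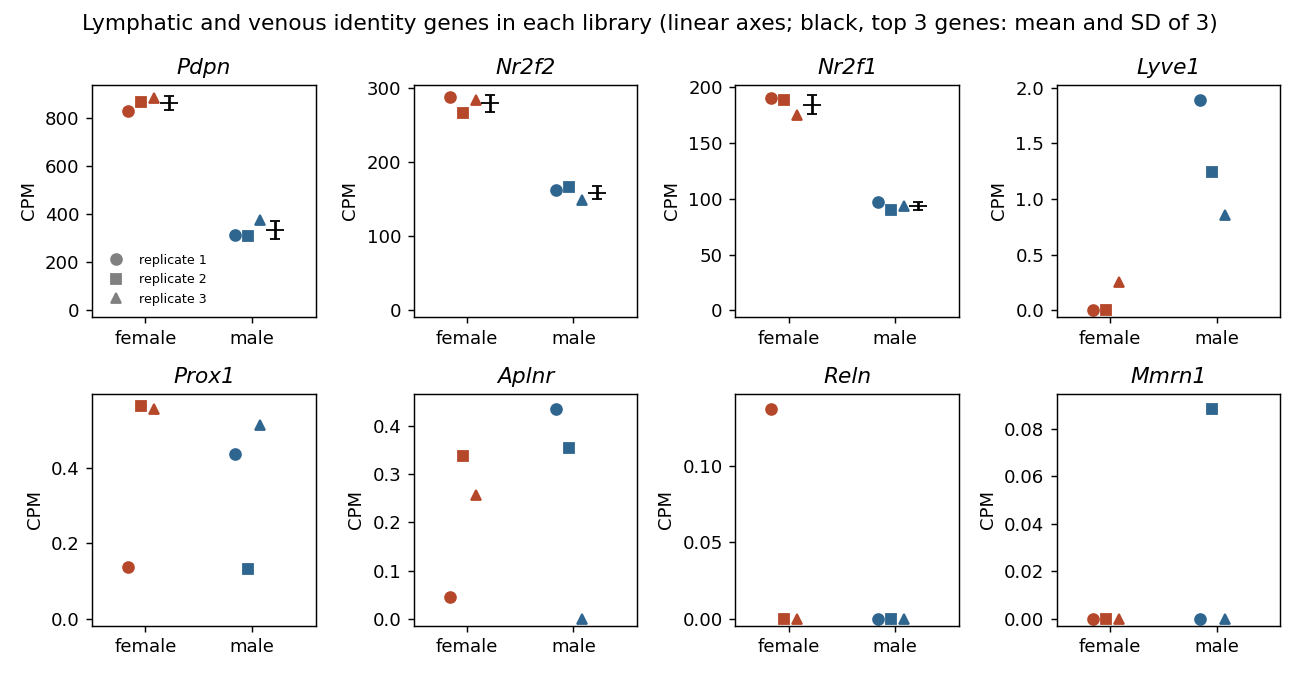
CPM of each gene (linear y axes with different ranges) in the 3 female and 3 male libraries, with symbols for replicate numbers. Bars, drawn for the 3 abundant genes only, are the mean and SD of 3 libraries. Pdpn, Nr2f2 and Nr2f1 lie higher in every female library than in any male one, Lyve1 lies lower, and the other 4 genes overlap or rest on a few counts.

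Prox1, the master regulator of lymphatic fate (ENSMUSG00000010175, chr1:190118035-190170714, minus strand), had 3, 10 and 13 counts in the female libraries and 9, 3 and 9 in the male ones. The sexes overlapped, and the lowest library of each sex held 3 counts. The highest level in any library was 0.563 CPM, in female replicate 2. The log2 fold change of female over male was 0.23 ± 0.74 (SE; edgeR adjusted p = 0.872), and the ratio of summed counts was 1.20 with a 95% counting interval of 0.647 to 2.23. That interval covers counting error only and is not the limit of what the test could detect. With limma-voom and quality weights the log2 fold change was 1.24 ± 0.64 (adjusted p = 0.133), and without 1 library at a time it ranged from -0.19 to 0.64 (edgeR), so that neither its size nor its sign was stable. The antisense genes Prox1os and Gm28172, which overlap Prox1, had 0 counts in all 6 libraries.

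Mmrn1, which codes for a large secreted glycoprotein of platelets and lymphatic endothelium (ENSMUSG00000054641, chr6:60924976-60989378, plus strand), had 2 counts in male replicate 2 and 0 in the other 5 libraries. No comparison of the sexes can be drawn from this.

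Lyve1 (ENSMUSG00000030787, chr7:110850607-110863239, minus strand) had 39, 28 and 15 counts in the male libraries, or 1.89, 1.24 and 0.854 CPM. In the female libraries it had 0, 0 and 6 counts, the last being 0.257 CPM in replicate 3. All male libraries lay above all female ones, and male replicate 3, the library that stood apart, was the lowest male. Lyve1 fell by 3.76 ± 0.92 (log2, SE; edgeR adjusted p = 0.0182), and the ratio of summed counts was 14.2-fold lower in female, with a 95% counting interval of 6.23 to 39.7. It passed the filter on low counts only through its male libraries, and of the 3003 tested genes with a mean under 50 counts 7.49% were called lower. The call was lost without any 1 of 4 libraries: adjusted p was 0.0628 without male replicate 1, 0.0632 without male replicate 2, 0.0633 without female replicate 1 and 0.0692 without female replicate 2 (edgeR). It remained without male replicate 3 (adjusted p = 0.00113, edgeR). Without female replicate 3, the only female library with counts, 0 counts were left in female. Set at 3 counts over both libraries, they made Lyve1 at least 17.8-fold lower in those libraries, with the male counts taken as exact. Over all 6 libraries the interval starts at 6.23-fold, so 17.8-fold is not a lower limit for the difference between the sexes.

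Macrophages share Lyve1, so their markers were read beside it. Of 10 macrophage markers, 7 stayed under 1 CPM in every library, and the leukocyte gene Ptprc (CD45), with Itgam, Cd163, C1qa and Tyrobp, had 0 counts in all 6. The summed level of the list was 19.3 to 25.0 CPM in female and 9.64 to 12.5 CPM in male libraries. Most of it was Cd14, a lipopolysaccharide co-receptor that other cells also make, at 17.9 ± 2.83 CPM in female against 7.71 ± 1.26 CPM in male libraries (SD, n = 3; log2 fold change 1.22 ± 0.18, edgeR adjusted p = 0.00128). Single markers lay on both sides. The macrophage scavenger receptor gene Mrc1 (CD206), named after its values were seen and too low to be tested, had 1, 0 and 0 counts in the female and 7, 8 and 11 in the male libraries, which did not overlap, the same order as Lyve1. Csf1r, the receptor gene for macrophage colony-stimulating factor, averaged 0.331 CPM in female against 0.874 CPM in male libraries and was not called (-1.35 ± 0.60, edgeR adjusted p = 0.169). Cd68, a lysosomal gene, averaged 2.97 CPM in female against 2.08 CPM in male libraries and was not called (0.51 ± 0.30, edgeR adjusted p = 0.295). The part of macrophages in the difference of Lyve1 was not tested.

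Podoplanin was the most abundant of the 8 by far. Pdpn (ENSMUSG00000028583, chr4:143267431-143299564, minus strand) stood at 832, 870.5 and 887 CPM in the female libraries and at 316, 311 and 376 CPM in the male ones. Every female library was above every male one, and male replicate 3 was the highest male. The means were 863 ± 28.4 CPM in female against 334 ± 36.5 CPM in male libraries (SD, n = 3), a log2 fold change of 1.37 ± 0.12 or 2.58-fold (edgeR adjusted p = 2.95e-05). Without male replicate 3 the log2 fold change was 1.46 ± 0.09 (edgeR adjusted p = 2.15e-11). On chromosome 4, which carries Pdpn, 13.9% of 901 tested genes were called higher.

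COUP-TFII followed the same order. Nr2f2 (ENSMUSG00000030551, chr7:70351944-70366735, minus strand) stood at 288, 267 and 283 CPM in the female libraries and at 162, 166 and 148 CPM in the male ones. The lowest female library lay well above the highest male. Nr2f2 rose from 159 ± 9.30 CPM in male to 279.5 ± 11.4 CPM in female libraries (SD, n = 3; log2 fold change 0.81 ± 0.10, or 1.76-fold; edgeR adjusted p = 0.000351).

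Its paralogue COUP-TFI, encoded by Nr2f1 (ENSMUSG00000069171, chr13:78188973-78199757, minus strand), stood at 191, 188 and 175 CPM in the female libraries and at 96.7, 89.9 and 93.9 CPM in the male ones. The sexes were again well separated, with less spread among male than among female libraries. The means were 185 ± 8.45 CPM in female against 93.5 ± 3.42 CPM in male libraries (SD, n = 3), a log2 fold change of 0.98 ± 0.10, or 1.97-fold (edgeR adjusted p = 8.71e-05). Without male replicate 3 the log2 fold change was 0.98 ± 0.09 for Nr2f1 and 0.77 ± 0.09 for Nr2f2 (edgeR adjusted p = 2.47e-08 and 5.52e-07). Of tested genes, 9.25% on chromosome 13 (Nr2f1) and 8.71% on chromosome 7 (Nr2f2) were called higher.

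Reads could be confused between genes in a few stretches. The Nr2f1 and Nr2f2 transcripts of GENCODE M21 shared 10 stretches of 50 bases, out of 5090 distinct ones in Nr2f1. Each gene overlaps a noncoding gene on the opposite strand, and since it is not known whether the counting used strand, reads of the 2 partners cannot be told apart there. B130024G19Rik held 594 of the 8582 such stretches of Nr2f2 on either strand, and A830082K12Rik 56 of those of Nr2f1. A830082K12Rik rose in female, from 28.4 to 44.1 CPM (log2 fold change 0.63 ± 0.14, edgeR adjusted p = 0.0108; 0.0505 without female replicate 2 and 0.055 without female replicate 3). B130024G19Rik, at 13.6 CPM in female against 9.31 CPM in male libraries, was not called (0.55 ± 0.17, edgeR adjusted p = 0.0502). Pdpn shared 1 of 1813 stretches with another gene, and Lyve1 none of 2867.

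Reln, the reelin gene (ENSMUSG00000042453, chr5:21884454-22344702, minus strand), had 3 counts in female replicate 1 and 0 in the other 5 libraries, too few for a comparison. The noncoding genes and pseudogenes that overlap it (Gm16110, Gm16111, Gm16112, Gm16113, Gm10475, Gm19666 and Dnaja1-ps) had 0 counts in all 6 libraries. Of its receptors, Vldlr fell in female, from 152 ± 24.0 to 48.2 ± 5.41 CPM (SD, n = 3; log2 fold change -1.65 ± 0.14, edgeR adjusted p = 3.75e-05), and Lrp8 was at 16.1 CPM in female against 16.7 CPM in male libraries and was not called. Vldlr also binds lipoproteins. The adaptor gene Dab1, which carries the reelin signal in the cell, had 0 counts in all 6 libraries.

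Aplnr (ENSMUSG00000044338, chr2:85136225-85139923, plus strand) had 1, 6 and 6 counts in the female libraries and 9, 8 and 0 in the male ones. The sexes overlapped, with the single library at 0 being male replicate 3 (exact permutation test of CPM, two-sided p = 0.7). The ratio of summed counts, female over male, was 0.738, with a 95% counting interval of 0.330 to 1.61. Its ligand gene Apln fell in female, from 24.6 ± 0.443 to 17.0 ± 1.06 CPM (SD, n = 3; log2 fold change -0.54 ± 0.12, edgeR adjusted p = 0.0142; 0.0598 without female replicate 2 and 0.0674 without female replicate 3), and the other ligand gene, Apela, had 0 counts in all 6 libraries.

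On a scale that allows genes to be compared (CPM per kilobase of the deposited gene length), Pdpn stood at 475 ± 15.6 in female and 184 ± 20.1 in male libraries, rank 50 and rank 194 of the 25883 genes with a count in any library. Nr2f1 followed at 36.3 ± 1.66 and 18.4 ± 0.671, and Nr2f2 at 32.4 ± 1.32 and 18.4 ± 1.08. Within libraries the level per length of Nr2f1 was 1.05 to 1.20 times that of Nr2f2 in female and 0.918 to 1.07 times in male libraries, so these neighbours changed places between male libraries and the ranges of the sexes overlapped (exact permutation test, two-sided p = 0.2). The deposited Nr2f2 length, 8625 bases, is longer than any single transcript of it in GENCODE M21, which lowers its level per length.

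The remaining 5 genes were under 1 on this scale in every library. Lyve1 was at 0.455 ± 0.179 in male and 0.0293 ± 0.0507 in female libraries. Aplnr (0.0711 ± 0.0626 in male, 0.0577 ± 0.0407 in female) and Prox1 (0.0429 ± 0.0239 in male, 0.0499 ± 0.0291 in female) did not differ beyond their spread from each other in either sex. Mmrn1 and Reln came last, at 0.0151 and 0.00578 in the 1 library of each that had counts.

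**Figure D2:**
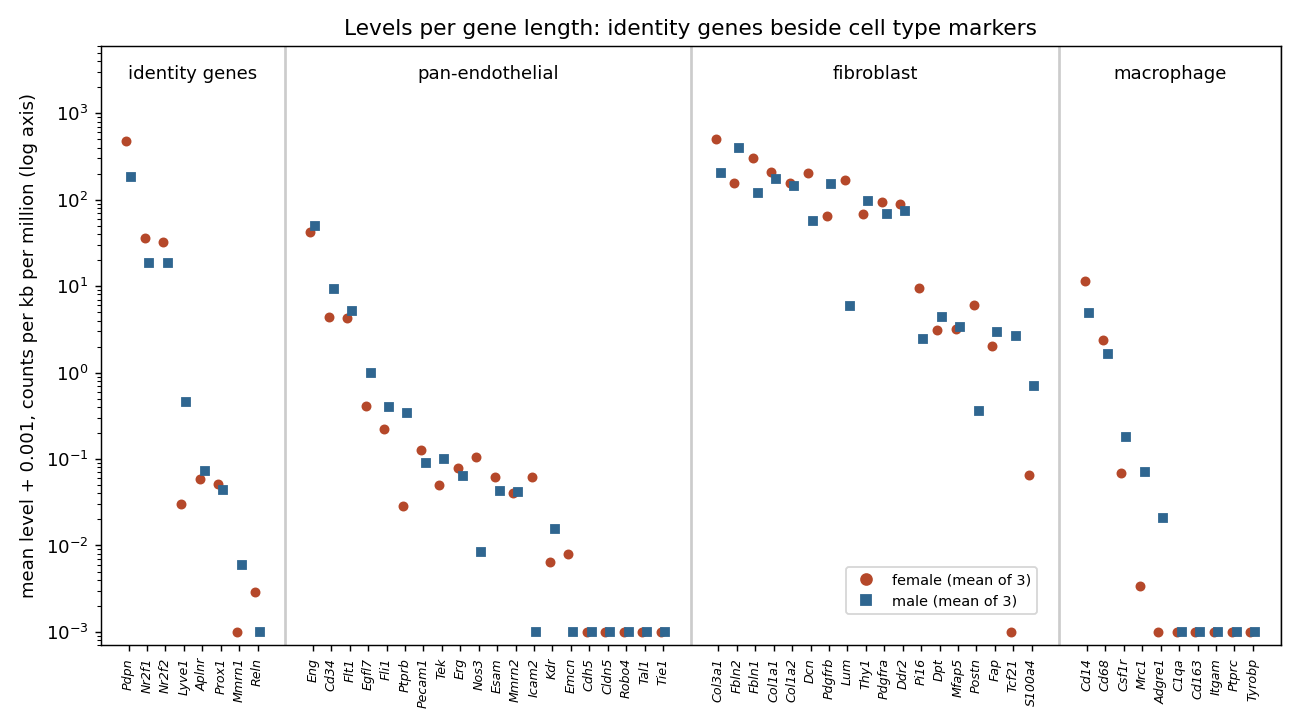
Mean level per gene length (log axis, 0.001 added so that genes at 0 can be drawn at the bottom) in female (circles) and male (squares) libraries, each the mean of 3, for the 8 identity genes and for pan-endothelial, fibroblast and macrophage markers. Pdpn, at 475 in female and 184 in male libraries, lies among the fibroblast collagens and proteoglycans, and Prox1, Aplnr, Mmrn1 and Reln lie with the pan-endothelial genes at or near 0.

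The 3 genes that rose were read against the fibroblast list, whose sum was also higher in female libraries. As a percentage of that sum, Pdpn was 5.59, 5.82 and 6.35% in female and 2.88, 2.68 and 3.73% in male libraries. Nr2f1 was 1.26 ± 0.0154% in female and 0.864 ± 0.0788% in male libraries, and Nr2f2 1.92 ± 0.124% and 1.46 ± 0.0266% (SD, n = 3). On this ratio the sexes did not overlap for any of the 3 (exact permutation tests, two-sided p = 0.1 each, the smallest that 3 against 3 can give). The share of all genes that separate on this ratio was not computed. On CPM alone, every female library lay above every male one for 19.2% of genes tested. The part of fibroblast content in the rise of the 3 was not tested. The fibroblast list itself went both ways, with 7 of 17 tested genes higher, 4 lower and 6 not called (median log2 fold change 0.25, against -0.009 over all genes tested). The shares over all genes tested were 9.68% higher and 8.62% lower. The 4 lower were Fbln2, Tcf21, Pdgfrb and Thy1, with Pdgfrb at -1.24 ± 0.13 and Thy1 at -0.50 ± 0.12 (log2; edgeR adjusted p = 9.19e-05 and 0.0208). Tcf21 had 0 counts in every female library and passed the filter on low counts only through its male ones. Thy1 was not called without male replicate 2 or any 1 female replicate (edgeR adjusted p 0.0595 to 0.0916). Pdgfra, among the 7 higher (edgeR adjusted p = 0.0484), was not called in the same runs (edgeR adjusted p 0.133 to 0.183). Without 1 library at a time, 6 to 7 genes of the list were higher and 3 to 5 lower. Among the genes of the smallest p were Lum, the proteoglycan lumican, Postn (periostin) and Pi16, which rose by 4.85 ± 0.15, 4.09 ± 0.19 and 1.99 ± 0.14 (edgeR adjusted p = 1.85e-07, 9.26e-07 and 1.03e-05). The collagen gene Col3a1, the most abundant of the list per length in female libraries (507 CPM per kilobase, against 205 in male), rose by 1.30 ± 0.12 and Dcn, the proteoglycan decorin, by 1.84 ± 0.11, while Fbln2, a basement membrane glycoprotein and the most abundant in male libraries (398, against 155 in female), fell by 1.36 ± 0.12 (log2; edgeR adjusted p = 4.08e-05, 3.21e-06 and 3.11e-05).

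Mesothelial cells also carry podoplanin. Of 10 mesothelial markers, 7 stayed under 1 CPM in every library, and Lrrn4 and Gpm6a had 0 counts throughout. Wt1 had 4 counts in male replicate 3 and 0 in every other library. The list summed to 8.55 to 12.1 CPM in female and 5.92 to 7.89 CPM in male libraries, and most of the female sum was Krt18. Msln, Upk3b and Upk1b, too low to be tested, went the other way, with 0 counts in every female library. In the male libraries Msln had 10, 1 and 6 counts, Upk3b 1, 8 and 9, and Upk1b 1, 1 and 1. The keratin gene Krt18 rose from 0.504 ± 0.250 to 7.51 ± 1.40 CPM (SD, n = 3; edgeR adjusted p = 5.06e-05), Bnc1 fell from 4.01 ± 1.97 to 0.991 ± 0.0867 CPM (edgeR adjusted p = 0.00817), and Krt19 was not called. The part of other cell types in the difference of Pdpn was not tested.

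The genes most like each called one, by Pearson's r of log2 CPM over the 6 libraries among 12536 protein-coding genes, were as follows. For Pdpn they were Scpep1, Creld1 and Odc1 (r = 0.9997, 0.9994 and 0.9994), for Nr2f2 Spry4, H60b and Tmtc2 (0.9994, 0.9986 and 0.9983), and for Nr2f1 Zfand5, Rgmb and Tnfsf11 (0.9987, 0.9986 and 0.9984). For Lyve1 they were Gclc, Itih3 and Oxsr1 (0.9942, 0.9938 and 0.9922). All 6 libraries share the difference between the sexes, and 694 to 708 genes reached 0.95 with each of Pdpn, Nr2f1 and Nr2f2, so these values describe a common pattern of 2 groups. Among themselves the 3 correlated at 0.964 to 0.985, and Lyve1 correlated with them at -0.882 to -0.935.

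Beyond the 8, genes of the lymphatic programme went both ways. Of 20 others, 14 were tested, of which 6 rose, 5 fell and 3 were not called, with a median log2 fold change near 0 (-0.0023). Over all genes tested, 9.68% were called higher and 8.62% lower, and the lists were chosen with earlier results of these data known. Without 1 library at a time 6 of the 14 rose in each case, and 4 to 6 fell. The 4 were without male replicate 1 or female replicate 1 and the 6 without male replicate 3. The lymphangiogenic ligands moved in opposite directions. Vegfd stood at 118, 122 and 128 CPM in the female libraries and 62.2, 50.9 and 54.8 CPM in the male ones (log2 fold change 1.13 ± 0.11, edgeR adjusted p = 8.18e-05). Vegfc stood at 76.2, 80.4 and 71.8 CPM in the female libraries and 159, 160 and 190 CPM in the male ones (-1.16 ± 0.11, edgeR adjusted p = 7.98e-05). Neither overlapped between the sexes. Among all genes tested, every female library lay above every male one for 19.2% and below for 16.7%. Fibroblasts and smooth muscle cells make both ligands. Of the genes for processing VEGF-C, the scaffold gene Ccbe1 rose (63.0 CPM in female, 36.7 CPM in male) and the protease gene Adamts3 fell (0.307 and 1.48 CPM; edgeR adjusted p = 0.0075 and 0.00958). Adamts3 was not called without male replicate 1 (0.0531, edgeR adjusted p) or female replicate 1 (0.0541). It had 5, 7 and 7 counts in the female and 40, 32 and 19 in the male libraries. Like Lyve1, it passed the filter on low counts only through its male libraries.

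The receptor gene Flt4 (VEGFR3) was low, at 8.14, 6.53 and 5.69 CPM in female and 3.10, 3.14 and 1.99 CPM in male libraries, and rose by 1.30 ± 0.25 (edgeR adjusted p = 0.00563). Its co-receptor gene Nrp2 rose from 14.0 ± 3.60 to 104 ± 12.5 CPM (SD, n = 3; log2 fold change 2.89 ± 0.20, edgeR adjusted p = 7.91e-06), and Itga9, an integrin of lymphatic valves, fell from 37.7 ± 2.15 to 13.1 ± 1.03 CPM (edgeR adjusted p = 2.79e-05). Of the transcription factor genes, Sox18, the partner of COUP-TFII at Prox1, was not tested. It had 5 counts in male replicate 3 and 0 in every other library. Gata2 (22.5 and 47.8 CPM) and Foxc2 (69.8 and 104 CPM) fell in female (edgeR adjusted p = 0.000128 and 0.005). The lymphatic chemokine gene Ccl21a, listed in 2 rows, and Cldn11 had 0 counts in every library.

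Of 14 other venous and capillary genes, 9 were tested, of which 2 rose, 4 fell and 3 were not called (median log2 fold change -0.51). The shares over all genes tested were 9.68% higher and 8.62% lower. The venous ephrin receptor gene Ephb4 rose from 73.4 to 113 CPM (0.62 ± 0.10, edgeR adjusted p = 0.00231), as did the fatty acid receptor gene Cd36, from 4.07 ± 0.517 to 13.9 ± 1.92 CPM (edgeR adjusted p = 0.000121). Plvap, of endothelial diaphragms, fell from 113 ± 30.5 to 3.53 ± 0.391 CPM (edgeR adjusted p = 9.07e-07). Selp (P-selectin) fell from 62.8 ± 13.1 to 12.8 ± 1.15 CPM, and Vcam1, which fibroblasts express too, from 550.1 ± 9.85 to 287 ± 19.6 CPM (SD, n = 3; edgeR adjusted p = 1.52e-05 and 0.000167). Nt5e, a nucleotidase also used as a mesenchymal marker, fell from 11.3 ± 0.539 to 2.80 ± 0.429 CPM (edgeR adjusted p = 5.75e-05). Ackr1, the venular chemokine receptor gene, had 0 counts in all 6 libraries, with Car4 and Gpihbp1, and Vwf averaged 0.323 CPM in female against 0.210 CPM in male libraries.

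Of 14 ligands, receptors and paralogues of the 8 genes, 9 were tested, of which 1 rose, 3 fell and 5 were not called. Their median log2 fold change was -0.37, and over all genes tested 9.68% were called higher and 8.62% lower. Without 1 library at a time, 2 to 4 of the 9 were lower, the 4 without male replicate 3. Around LYVE1, Cd44, the other main hyaluronan receptor gene, stood at 211 ± 8.40 CPM in female against 273 ± 31.0 CPM in male libraries and was not called (-0.37 ± 0.11, edgeR adjusted p = 0.0527). Of the hyaluronan synthase genes, Has1 rose from 16.1 ± 0.575 to 43.1 ± 3.56 CPM, Has2 fell from 52.1 ± 5.85 to 11.3 ± 0.390 CPM (SD, n = 3; edgeR adjusted p = 3.29e-05 and 3.53e-06), and Has3 was not called. The COUP-TF relative Nr2f6 was not called, at 46.3 ± 7.70 and 50.1 ± 7.19 CPM (log2 fold change -0.12 ± 0.16, edgeR adjusted p = 0.691). Clec1b, the platelet receptor of podoplanin, averaged 0.0590 CPM in female and 0 in male libraries.

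**Figure D3:**
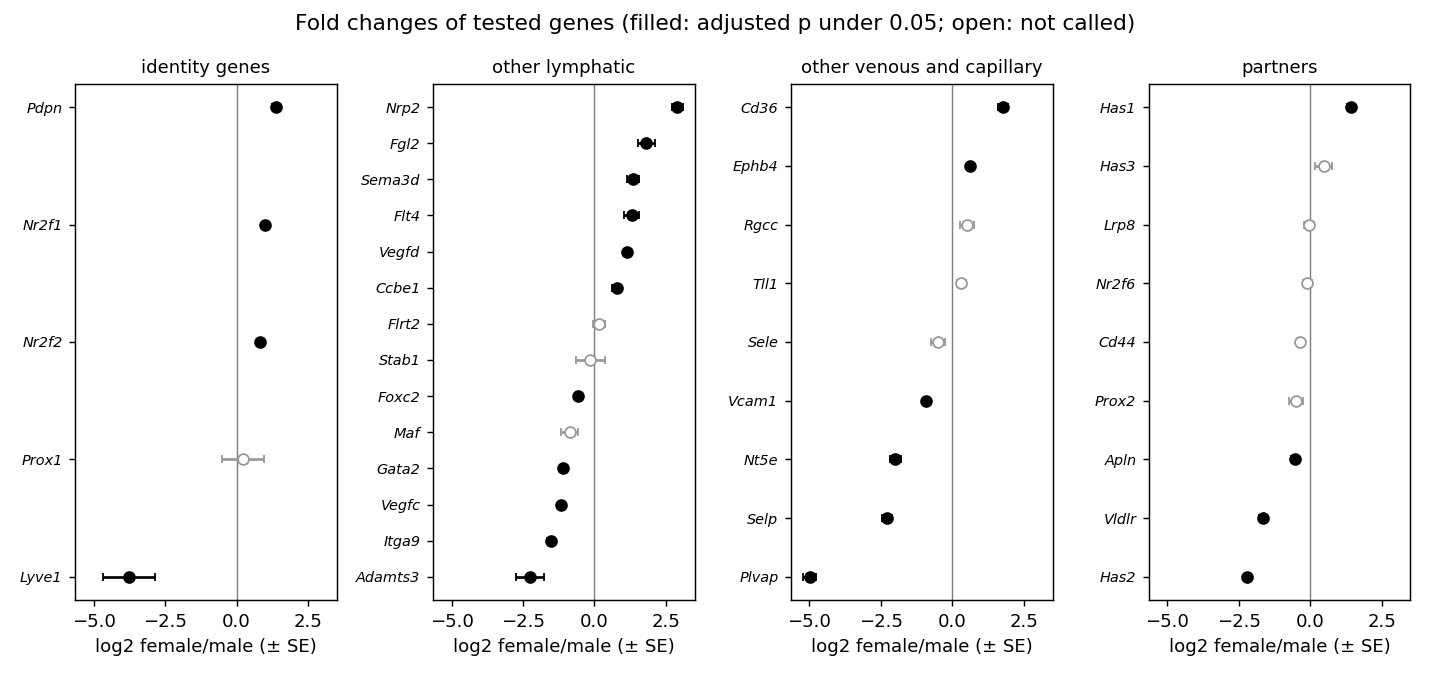
Log2 fold change of female over male (x axis, with SE from edgeR) for the tested genes among the 8 and of the lymphatic, venous and partner lists. Filled points passed an adjusted p of 0.05 and open points did not. Pdpn, Nr2f1 and Nr2f2 lie above 0 and Lyve1 at -3.76, and each other list has filled points on both sides.

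The calls for Pdpn, Nr2f1 and Nr2f2 were made under each alternative run, and that for Lyve1 under some of them.

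**Figure D4:**
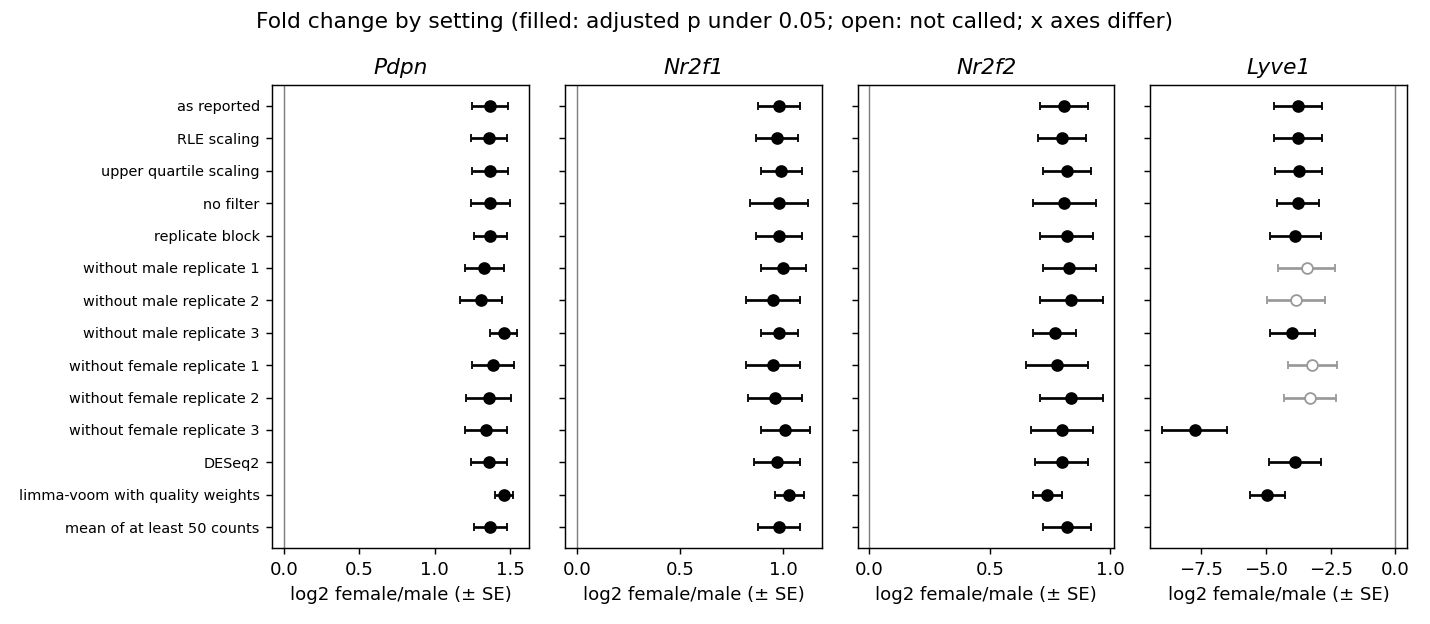
Log2 fold change of female over male with SE (x axes differ) for 4 genes under each alternative normalization, test, filter, replicate block and left-out library. Filled points passed an adjusted p of 0.05. Lyve1 is open where male replicate 1 or 2 or female replicate 1 or 2 was left out and missing under a mean of at least 50 counts, and its value without female replicate 3 rests on 0 female counts and depends on the prior count.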

How the data were processed

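RNA was sequenced from 3 female and 3 male cultures, grouped by the sex in the labels. The authors deposited raw counts, whole numbers of reads for each gene in each library. The submitters' processing notes name HISAT2 2.0.5 and featureCounts 1.5. Genome build and strand setting were not given in the sources used here. The labels' protocols name library kits both with and without strand marking. Of the gene identifiers, 99.8% were in GENCODE M21 (GRCm38), and all 8 genes had the same coordinates there. Gene lengths are those deposited.

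Genes were tested with edgeR 4.0.16 (R 4.3.3): quasi-likelihood F test, robust, on TMM-scaled counts after filterByExpr (minimum count 10), leaving 14932 genes, with Benjamini-Hochberg adjustment over all of them. Libraries of a sex differed beyond sampling noise (chi-square per degree of freedom 7.82 to 78.4). Counting intervals are exact binomial. Alternatives were DESeq2 1.42.0, limma-voom with quality weights (limma 3.58.1), scaling by RLE or upper quartile, no filter, a mean of at least 50 counts, a replicate block, each library left out and an adjusted p under 0.01.

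The 8 genes, the lists and the alternatives were chosen with earlier results of these data known. Named genes were the 8, genes overlapping them, of each list the 4 with the smallest p and the 2 with the highest level per length, and the 3 most like each called gene. Other genes named, among them Flt4, Ccbe1, Adamts3, Ephb4, Sox18, Gata2, Foxc2, Mrc1, Lrp8, Has3, Flt1, Tcf21, Pdgfra, Pdgfrb, Thy1 and those at or near 0, were chosen after their values were seen. For genes other than the 8, leaving out each library was added after the data were seen.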

Additional observations from a re-analysis of the deposited data

How the results depend on the processing

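Pdpn, Nr2f1 and Nr2f2 were called higher, 3 of 3, under each alternative run, with log2 fold changes of 1.31 to 1.46, 0.95 to 1.03 and 0.74 to 0.84. The single lower call, Lyve1, was not made at an adjusted p under 0.01 (0 genes lower; Lyve1 at -3.76, edgeR adjusted p = 0.0182), nor at a mean of at least 50 counts, where Lyve1 was not tested (0 genes lower). With 1 library left out at a time, 0 to 1 genes were lower, with a Lyve1 log2 fold change of -7.75 to -3.21. Its adjusted p was 4.36e-05 to 0.0692 over all alternatives. Prox1 was not called under any alternative, but limma-voom with quality weights gave 1.24 ± 0.64 (log2 fold change, adjusted p = 0.133) against 0.23 as reported, and leaving out each library gave -0.19 to 0.64. With the replicate block, 3 genes were again higher and 1 lower, and Pdpn, Nr2f1, Nr2f2 and Lyve1 stood at 1.37, 0.98, 0.82 and -3.86 (Prox1 at 0.18). Deviations of same-numbered libraries correlated at 0.206, -0.00405 and 0.152. Those numbered 1 and 3 correlated best with their own number, while female replicate 2 correlated best with male replicate 3 (0.104). These values did not settle whether the numbers are pairs, and the main test did not pair them. Over all genes, calls higher and lower numbered 1446 and 1287, against 2508 and 2543 without male replicate 3, 967 and 903 without female replicate 2, and 3288 and 3283 with limma-voom. With the replicate block they numbered 1619 and 1449. The cause was not tested. Depth limits Prox1, Aplnr, Mmrn1 and Reln, whose counts stayed at or under 13 in every library.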

Other observations

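Arterial genes, the counterpart of the venous ones, went both ways. Of 20, 13 were tested, of which 3 rose in female, 5 fell and 5 were not called (median log2 fold change -0.17), and 9 stayed under 1 CPM in every library. The shares over all genes tested were 9.68% higher and 8.62% lower. Efnb2, the arterial ligand of EphB4, rose from 134 ± 18.5 to 230.0 ± 19.2 CPM (SD, n = 3; log2 fold change 0.78 ± 0.13, edgeR adjusted p = 0.0022). The Notch receptor gene Notch4 fell from 33.1 ± 2.73 to 7.65 ± 1.80 CPM and the netrin receptor gene Unc5b from 393 ± 56.2 to 189 ± 7.51 CPM (edgeR adjusted p = 4.08e-05 and 0.000272). Fbln5, an elastic fibre gene, fell by 1.17 ± 0.14 (log2), and the chemokine receptor gene Cxcr4 went from 0.0983 ± 0.0442 to 3.74 ± 0.547 CPM (edgeR adjusted p = 0.000294 and 3.59e-05). Cxcr4 had 1, 3 and 2 counts in the male libraries and passed the filter on low counts only through its female ones. The Notch target genes Hey1 and Hey2 averaged 0 CPM in female and 0.101 and 0.0147 CPM in male libraries.

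Of 10 neural markers, read because neurons make reelin, 6 stayed under 1 CPM in every library. Those tested were 5, of which 2 rose, 2 fell and 1 was not called. For this list and the next, the shares over all genes tested were 9.68% higher and 8.62% lower. The vesicular glutamate transporter gene Slc17a6 went from 0.233 ± 0.161 CPM in male to 20.5 ± 0.884 CPM in female libraries and Snap25, of the vesicle fusion machinery, from 3.56 ± 0.743 to 13.8 ± 0.989 CPM (SD, n = 3; edgeR adjusted p = 1.56e-06 and 8.19e-05). Tubb3 fell by 1.14 ± 0.18 and Map2 fell by 4.46 ± 0.63 (log2; edgeR adjusted p = 0.00179 and 0.000851), and Rbfox3 and Dcx had 0 counts in all 6 libraries. Map2, with 0, 3 and 6 counts in the female libraries, passed the filter on low counts only through its male ones. Slc17a6, with 1, 7 and 6 counts in the male libraries, passed it only through its female ones. Of 11 smooth muscle and pericyte markers, 7 were tested, of which Rgs5 rose (0.44 ± 0.12, edgeR adjusted p = 0.0314; 0.0983 to 0.145 without male replicate 2 or any 1 female replicate), Acta2 fell by 2.64 ± 0.26 (edgeR adjusted p = 7.6e-05) and 5 were not called, among them Smtn (112 CPM in female, 130 CPM in male; -0.21 ± 0.11, edgeR adjusted p = 0.218) and Tagln (0.299 and 0.846 CPM; -1.46 ± 0.80, edgeR adjusted p = 0.269).

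Genes flanking the 8 were looked up after the data were seen, the 2 nearest tested genes on each side that do not overlap them. Of these 32 genes, 5 were called higher in female, 3 lower and 24 were not called, beside 9.68% higher and 8.62% lower over all genes tested. Beside Pdpn, Gm13050, Prdm2 and Anp32b-ps1 were not called, and the protein-coding gene Pramef8 at 112.9 kb rose (0.80 ± 0.16, edgeR adjusted p = 0.00637). Beside Nr2f1, Fam172a at 22.7 kb was not called, and Arrdc3 at 2683.6 kb rose (0.70 ± 0.16, edgeR adjusted p = 0.0122; 0.0534 to 0.0657 without male replicate 2 or female replicate 2 or 3). Nr2f2 lies in a wide interval, and the nearest on either side, Arrdc4 at 1602.7 kb and Mctp2 at 1711.1 kb, both rose (1.10 ± 0.12 and 2.02 ± 0.23, edgeR adjusted p = 0.000168 and 0.000207). Beside Mmrn1, itself at 0 to 2 counts, A730020E08Rik at 182.9 kb fell from 1.99 to 0.0868 CPM and Ccser1 at 190.9 kb from 4.76 to 0.115 CPM (edgeR adjusted p = 0.00155 and 0.000259), while Tigd2 at 1712.9 kb rose (0.92 ± 0.12, edgeR adjusted p = 0.000437). A730020E08Rik and Ccser1 passed the filter on low counts only through their male libraries. Beside Aplnr, the olfactory receptor gene Olfr1033 fell by 0.88 ± 0.22 (log2; edgeR adjusted p = 0.0193; 0.0619 to 0.0897 without male replicate 1 or 2 or female replicate 1 or 2).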
